A study of Mus musculus with 9 samples.

Results

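The genes described here are 35 interferon-stimulated genes outside the oligoadenylate synthetase (Oas) family, taken as a list of mouse symbols out of 45777 genes in the tables. All 35 were found by their gene ID, and all 35 were among the 13820 genes with at least 1 TPM (transcripts per 1000000) in at least 3 of the 9 samples. The samples are bulk RNA from CD11b+ cells, the myeloid cells that carry the integrin CD11b, isolated from dissociated mouse livers. Every mouse had received acetaminophen (APAP) into the peritoneum, a standard way to injure the liver, and all livers were taken 48 hours later, so the controls are injured too. The 3 PBS samples are those controls. The 3 HEK-EV samples came after SIRP-EV whose source was HEK cells, derived from human embryonic kidney, and the 3 MSC-EV samples after SIRP-EV made from MSC (mesenchymal stem or stromal cells). EV are extracellular vesicles, and they were injected into a vein 8 hours after APAP. The labels do not spell out SIRP and give no strain, age or dose. Uninjured liver and vesicles without SIRP were not analysed here. They also do not say that replicates came from separate animals, so the p-values measure only the spread between these samples.

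Type I interferons bind the receptor made of IFNAR1 and IFNAR2, and the kinases JAK1 and TYK2 then phosphorylate transcription factors, STAT2 among them. STAT2 and IRF9 are parts of the complex ISGF3, which binds the interferon-stimulated response element (ISRE) in promoters of the genes that slow viral replication. Interferon gamma acts through its own receptor and on the gamma-activated site (GAS), and the guanylate-binding proteins and immunity-related GTPases respond to it strongly. Monocytes and macrophages are responsive to both kinds of interferon.

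The promoter letters that give the pathway its name were read from RefSeq, build GRCm38.p6, which held a window of 250 bases before to 50 bases after a transcript start for 26 of the 35 genes. The ISRE was searched on both strands as GAAA, then NN, then GAAA, where N is any base, and 15 of the 26 (57.7%) held it, against 3.99% of all 27025 genes with a window. The GAS was searched as TTCNNNGAA, which reads the same on both strands, and was held by 7 of the 26 (26.9%), against 9.55% of all. Both were held by 4 genes, and in Bst2 and Ifitm3 they shared bases. The stretches below are those of Isg15, Ifit1, Ifit3 and Rsad2, which are among the 6 genes with the lowest estimates, and of 3 of the 4 GTPases, whose values stood apart (Gbp3 also held matches and is not shown), 5′ to 3′ on the gene's own strand, with every base of an ISRE match in capitals. A run of TTTC in capitals is a match read on the opposite strand.
Isg15: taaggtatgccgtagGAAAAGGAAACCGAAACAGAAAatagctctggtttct
Ifit1: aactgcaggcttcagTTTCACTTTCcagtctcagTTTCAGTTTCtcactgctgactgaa
Ifit3: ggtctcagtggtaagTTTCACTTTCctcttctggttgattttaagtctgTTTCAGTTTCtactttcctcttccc
Rsad2: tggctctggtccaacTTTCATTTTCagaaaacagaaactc
Irgm1: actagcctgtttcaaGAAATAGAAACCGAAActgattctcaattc
Igtp: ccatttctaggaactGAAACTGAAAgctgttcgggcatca
Gbp2: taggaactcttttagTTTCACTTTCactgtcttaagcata

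These stretches are, in the same order, chr4:156200860-156200911 (minus strand), chr19:34640770-34640828 (plus), chr19:34583358-34583431 (plus), chr12:26456548-26456587 (minus), chr11:48871421-48871465 (minus), chr11:58199507-58199546 (plus) and chr3:142620589-142620628 (plus). Isg15 had 3 overlapping matches, between 57 and 78 bases before its start. The stretch of Ifit3b at chr19:34607754-34607827 had the same 74 bases as that of Ifit3. All 4 GTPases held an ISRE match, and so did 3 of the 4 IFIT genes and 3 of the 5 antiviral effectors with a window. Presence of the ISRE letters did not sort the genes by response. The median difference between MSC-EV and PBS was -0.52 for the 15 genes with an ISRE match, the 4 GTPases among them, and -0.68 for the 11 without. For the GAS it was -0.44 for the 7 genes with a match and -0.68 for the 19 without, with overlapping ranges. A match is a description of the letters, not evidence of binding.

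Depth is unknown, because the tables hold no counts of reads, and no counting error is given. A gene's coverage divided by its FPKM, a relative measure of depth, was 5.28, 6.06 and 6.32 in PBS replicates 1, 2 and 3. It was 6.25, 6.47 and 6.30 in HEK-EV and 6.58, 6.84 and 6.65 in MSC-EV. Every MSC-EV ratio lay above every other ratio, so the depth ratio and the MSC-EV group went together. Itgam, which encodes CD11b, was at 196 to 434 TPM and the leukocyte gene Ptprc at 418 to 669 TPM. Transcripts of pancreatic acinar cells (13 genes) took 0.00358% to 0.284% of TPM in HEK-EV replicates 1 and 2 and MSC-EV replicates 1 and 3, and 0.00133% to 0.00152% in the other 5 samples. PBS samples fall only on the side without them, so a fit with that split as a term was made in place of within-side comparisons.

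In the MSC-EV samples interferon-stimulated genes were at lower levels than in the PBS samples, with 34 of 35 estimates below 0, and 5 of them fell past the threshold. Ifitm3, Ifi27l2a, Sp100, Ifi35 and Mx2 were the 5 with an adjusted p under 0.05 in limma's test. Of all genes tested, 3.25% fell past that threshold and 5.11% changed in either direction. The median difference of log2(TPM + 1) over the 35 genes was -0.61, a ratio of 0.655, where the median over all genes tested was 0.01. The 3 MSC-EV values lay below the lowest PBS value in 24 of the 35 genes, against 14.9% of all genes tested, and 47.7% of all genes had an estimate below 0. In 1 of the 24, Parp14, the nearest values of the groups round to the same 114 TPM. An unadjusted p under 0.05 was reached by 31 of the 35, all but the 4 GTPases described below, and by 23.0% of all genes tested. In bulk RNA, fewer cells of a type and less RNA per cell cannot be told apart.

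**Figure D1:**
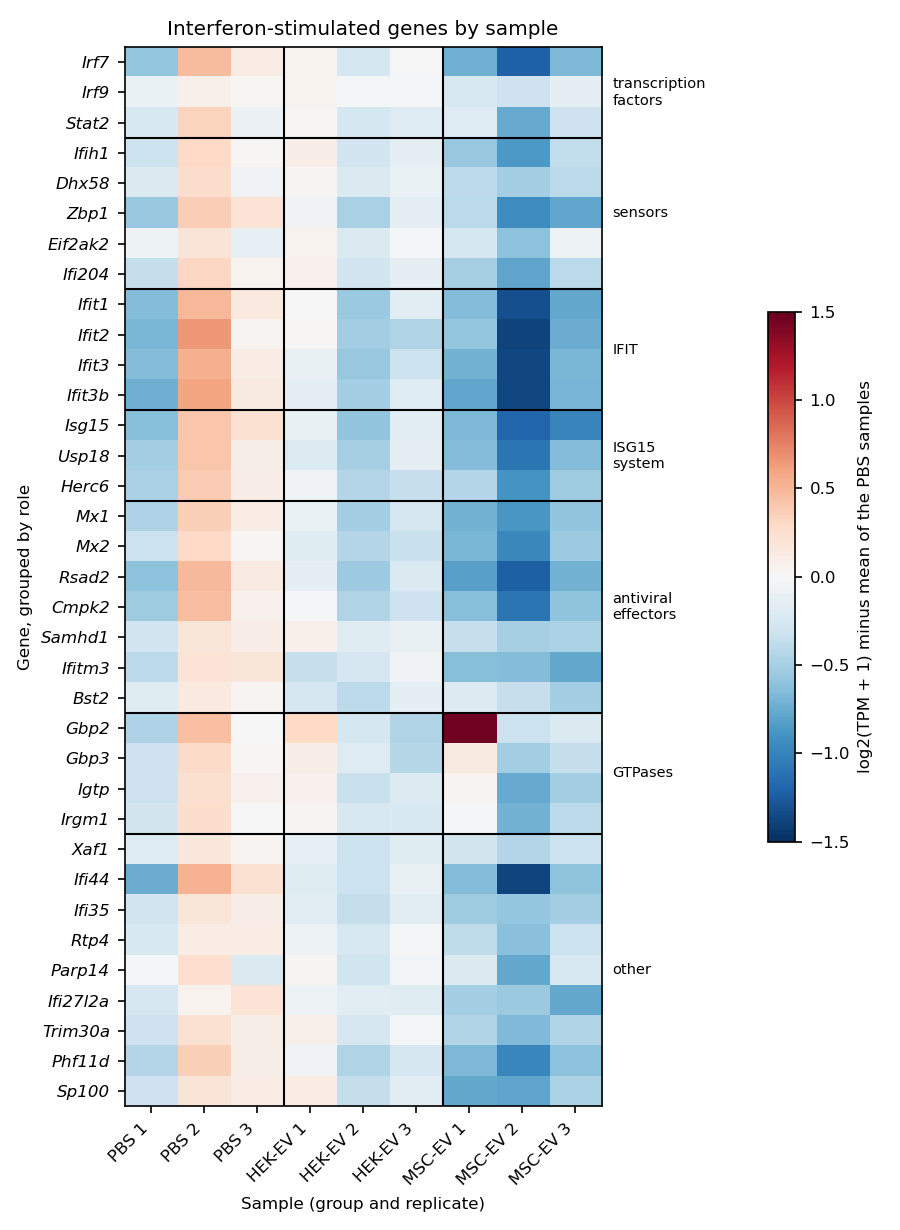
Level of each of the 35 interferon-stimulated genes (rows, grouped by role) in each of the 9 samples (columns). Colour shows log2(TPM + 1) minus the mean of the 3 PBS samples, blue for lower and red for higher. The MSC-EV columns are blue in nearly every row, PBS replicate 1 is blue and PBS replicate 2 red, and the GTPase rows of MSC-EV replicate 1 are the exception.

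The PBS controls themselves differed. Summed over the 35 genes, PBS replicates 1, 2 and 3 held 8141, 12688 and 11449 TPM. The HEK-EV replicates held 9929, 8555 and 9652 TPM. The MSC-EV replicates held 7508, 6308 and 6929 TPM. All 3 MSC-EV sums lay below the lowest PBS sum and below the lowest HEK-EV sum, while the HEK-EV sums lay inside the PBS range. In 31 of the 35 genes PBS replicate 1 was the lowest control and PBS replicate 2 the highest, a pattern found in 11.0% of all genes tested and chosen for counting after the values were seen. The median ratio of the highest to the lowest PBS value was 1.56 for these genes and 1.22 for all genes tested, and ran from 1.13 for Irf9 to 2.54 for Ifit2. As a standard deviation of log2(TPM + 1), the median spread was 0.32 among the PBS samples, 0.18 among HEK-EV and 0.26 among MSC-EV, against 0.13, 0.10 and 0.11 for all genes tested. PBS replicate 1 was also the sample with the lowest depth ratio and the PBS sample lowest in markers of Ly6C-high monocytes. Their part in this spread was not tested. All MSC-EV values lay below PBS replicate 1 in 25 of the 35 genes, against 39.9% of all genes.

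The other groups also had samples that stood low across the list. MSC-EV replicate 2 was the lowest of its group in 32 of the 35 genes (45.5% of all genes tested) and MSC-EV replicate 1 the highest in 19 (24.3%). HEK-EV replicate 2 was the lowest of its group in 30 (31.4%) and HEK-EV replicate 1 the highest in 29 (29.7%). The group means ran from PBS down through HEK-EV to MSC-EV in 34 genes, against 16.9% of all genes tested, with Gbp2 as the exception. These orders were also chosen for counting after the values were seen.

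The transcription factors of the list were Irf7, which drives interferon alpha genes, and Irf9 and Stat2, which encode parts of ISGF3. Irf7 was at 511, 1061 and 828 TPM in the PBS replicates, 792, 636 and 771 in HEK-EV, and 465, 330 and 480 in MSC-EV. Its 3 MSC-EV values lay below all 6 others, the highest at 480 against the PBS low of 511. The estimate for MSC-EV against PBS was -0.87 (SE 0.244, adjusted p = 0.0729). Irf9 had the smallest spread of the list among the PBS samples, at 121 ± 7.59 TPM in PBS and 103 ± 5.85 in MSC-EV (SD, n = 3), without overlap and with an estimate of -0.23 (SE 0.0645, adjusted p = 0.0692). Stat2 overlapped between these groups (estimate -0.42, adjusted p = 0.188). None of the 3 passed the threshold, although all 3 had an unadjusted p under 0.05.

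The sensors detect foreign or misplaced nucleic acid: Ifih1 (MDA5) and Dhx58 (LGP2) bind double-stranded RNA, Eif2ak2 (PKR) halts translation on binding it, Zbp1 binds Z-form nucleic acid, and Ifi204 belongs to the DNA-sensing p200 family. Ifi204, the most abundant of them, was at 561, 892 and 746 TPM in the PBS replicates. It was at 755, 589 and 652 TPM in HEK-EV and at 510, 417 and 542 TPM in MSC-EV. The MSC-EV values lay below both other groups, with an estimate of -0.56 against PBS (SE 0.168, adjusted p = 0.083). Over the 5 sensors the estimates ran from -0.71 for Zbp1 to -0.32 for Eif2ak2, with a median of -0.56. Ifih1, Dhx58 and Ifi204 did not overlap between MSC-EV and PBS, Zbp1 and Eif2ak2 did, and none of the 5 passed the threshold. Ifi204 shares 96.9% of 1363 transcript bases with Ifi211, so reads may have been divided between them.

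The IFIT genes encode proteins that bind viral RNA lacking the host's cap marks, and they had the lowest estimates of the list together with Isg15 and Rsad2. Ifit3 was at 203, 464 and 345 TPM in the PBS replicates, 296, 214.5 and 256 in HEK-EV, and 195, 123 and 197 in MSC-EV. PBS replicate 1 stood just above MSC-EV replicates 1 and 3, while the other PBS samples were far above. Its estimate was -0.92 (SE 0.286, adjusted p = 0.0914), and the 4 genes Ifit1, Ifit2, Ifit3 and Ifit3b lay between -0.95 and -0.90. None passed the threshold, and their PBS spread was the widest of the role groups, a median SD of 0.64. The transcripts of Ifit3 and Ifit3b are 97.8% identical over 1700 bases, so their values are not independent. Ifit1 and Ifit3b also lie opposite to Ifit1bl1, and whether counting used strand is not given in the sources used here.

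ISG15 is a ubiquitin-like protein attached to other proteins, Herc6 is the mouse ligase that attaches it, and Usp18 removes it and restrains the interferon receptor. Isg15 was at 205, 427 and 373 TPM in the PBS replicates, 295, 211.5 and 286 in HEK-EV, and 201, 140 and 160 in MSC-EV. The highest MSC-EV value was 201 against a PBS low of 205, so the groups were separated by a small gap set by PBS replicate 1. The estimate of -0.95 (SE 0.258, adjusted p = 0.0658) was the lowest of all 35. Usp18 fell short as well (estimate -0.80, adjusted p = 0.0661), as did Herc6 (-0.62, adjusted p = 0.115), whose groups overlapped.

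Among the antiviral effectors, which act on virus entry, replication or release, all 7 were without overlap between MSC-EV and PBS, and Ifitm3 and Mx2 passed the threshold. Ifitm3, which blocks fusion of viruses with endosomes, was the most abundant gene of the list, at 1879, 2829 and 2795 TPM in the PBS replicates. It was at 1939, 2057 and 2375 TPM in HEK-EV and at 1577, 1571 and 1439 TPM in MSC-EV. The MSC-EV values were close together and below all others, and the gene fell by 0.69 against PBS (SE 0.151, adjusted p = 0.0377). Mx2, a dynamin-like GTPase against viruses, was at 25.8, 40.3 and 32.9 TPM in PBS, 28.5, 23.6 and 25.6 in HEK-EV, and 19.8, 16.1 and 21.98 in MSC-EV. The HEK-EV values lay between the other groups and overlapped PBS, and Mx2 fell by 0.73 in MSC-EV against PBS (SE 0.16, adjusted p = 0.0369). Mx1, 94.8% identical to Mx2 over 920 transcript bases, had nearly the same estimate of -0.73 with an adjusted p of 0.0581. Rsad2 (viperin) had -0.92, Cmpk2, a mitochondrial nucleotide kinase, -0.78, Samhd1, which depletes nucleotides, -0.44, and Bst2 (tetherin), which holds budding virus to the cell, -0.35, with adjusted p between 0.0685 and 0.0852.

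The 9 remaining genes have varied or less settled roles, and 3 of them fell past the threshold. Ifi27l2a, which encodes a small mitochondrial protein, was at 973, 1206 and 1337 TPM in PBS, 1104, 1038 and 1027 in HEK-EV, and 817, 789 and 681.5 in MSC-EV. All MSC-EV values lay below all others, and the gene fell by 0.61 against PBS (SE 0.114, adjusted p = 0.026). On the opposite strand Ifi27 overlaps it over 6057 bases, at a mean of 34.8 TPM. Ifi35, a partner of the interferon-induced protein NMI, was at 101, 141 and 133 TPM in PBS, 110, 96.7 and 111 in HEK-EV, and 85.3, 82.5 and 86.6 in MSC-EV. Its MSC-EV values lay close together and below the rest, and it fell by 0.54 (SE 0.112, adjusted p = 0.0321). Sp100, a component of nuclear bodies, was at 394, 557 and 527 TPM in PBS, 525, 379 and 431.5 in HEK-EV, and 286, 280 and 349 in MSC-EV. It fell by 0.68 (SE 0.156, adjusted p = 0.042), again without overlap with either group. The other 6, Xaf1, Ifi44, Rtp4, Parp14, Trim30a and Phf11d, had estimates from -0.88 for Ifi44 to -0.35 for Xaf1 and adjusted p from 0.0553 to 0.179.

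**Figure D2:**
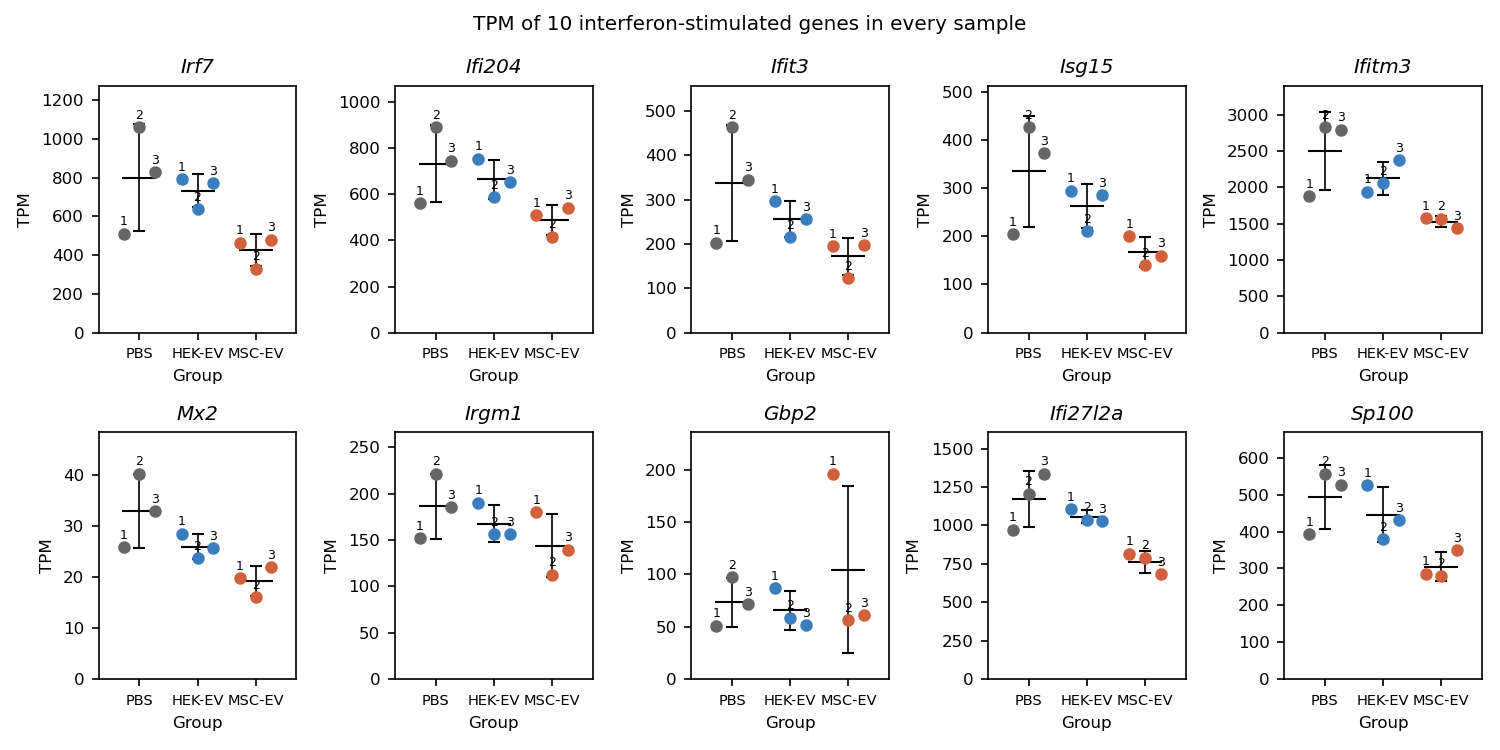
TPM (vertical axes, each from 0) of 10 interferon-stimulated genes in the 3 samples of each group, with replicate numbers beside the points and bars for mean ± SD (n = 3). The panels show the gene of highest level in each role group and the genes past the threshold except Ifi35. Gbp2 was added for its MSC-EV replicate 1 at 196 TPM. In Ifitm3, Mx2, Ifi27l2a and Sp100 all MSC-EV points lie below all other points.

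Which of the 5 genes passed also depended on the scaling. With median-of-ratios scaling Ifi27l2a and Mx2 passed and Ifitm3, Ifi35 and Sp100 did not, where 4.42% of all genes passed and 2.33% fell. With FPKM only Mx2 of the 35 passed, where 3.98% of all genes passed and 1.64% fell.

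The size of a difference and its place past the threshold did not go together. The 5 genes that passed had estimates between -0.73 and -0.54 and PBS SDs of log2(TPM + 1) between 0.23 and 0.34. Isg15, Rsad2 and the 4 IFIT genes had estimates of -0.95 to -0.90 and PBS SDs of 0.56 to 0.67, and none of these 6 passed.

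The GTPases were the exception among the role groups. Gbp2 and Gbp3 are guanylate-binding proteins and Igtp and Irgm1 immunity-related GTPases, which act on the vacuoles of intracellular pathogens. Irgm1, the most abundant, was at 152, 222 and 185 TPM in PBS, 190, 156.5 and 157 in HEK-EV, and 180, 113 and 140 in MSC-EV. MSC-EV replicate 1 lay among the controls and the other MSC-EV samples below them, with an estimate of -0.38 (SE 0.178, adjusted p = 0.245). Gbp2, singled out after its values were seen, was at 50.9, 97.3 and 71.2 TPM in PBS, 86.9, 58.7 and 51.5 in HEK-EV, and 196, 56.5 and 60.7 in MSC-EV. MSC-EV replicate 1 was above every other sample, which placed Gbp2 alone of the 35 genes above 0 against PBS, at 0.31 (SE 0.442, adjusted p = 0.74). Without that sample the estimate was -0.27. None of the 4 GTPases was without overlap and none had an unadjusted p under 0.05. That count rested on single samples. Without MSC-EV replicate 1 all 4 were below 0 and 3 had an unadjusted p under 0.05 in limma's test. With the acinar term 3 had one, and without PBS replicate 1, 2 did, while none of the 4 passed the threshold in these fits. The median of the GTPases was -0.31, and -0.49 without MSC-EV replicate 1. The median of the IFIT genes was -0.92, and -1.04 without that sample.

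A list of 20 further genes induced by interferon gamma was set beside the GTPases. None of the 20 passed the threshold in MSC-EV against PBS. An unadjusted p under 0.05 was reached by 4 (23.0% of all genes), and 13 estimates were below 0 (47.7% of all genes). The median was -0.10, and -0.39 with 18 of 20 below 0 when MSC-EV replicate 1 was left out. The median turned to 0.03 without PBS replicate 2 (9 below 0) and without MSC-EV replicate 2 (10 below 0). Without PBS replicate 1, 3 of the 20 passed, where 13.7% of all genes passed. Cxcl9, a chemokine for T cells that was picked after its values were seen, was at 115 TPM in MSC-EV replicate 1, 20.5 and 15.9 in the other MSC-EV samples, and 6.61 to 19.1 in the PBS and HEK-EV samples. Ifng itself was at 0.922 TPM in that sample and at 0.115 to 0.32 in the other 8. MSC-EV replicate 1 was thus the highest of its group in Ifng, Cxcl9 and all 4 GTPases, and its sum over the 35 genes was the highest of the group as well.

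**Figure D3:**
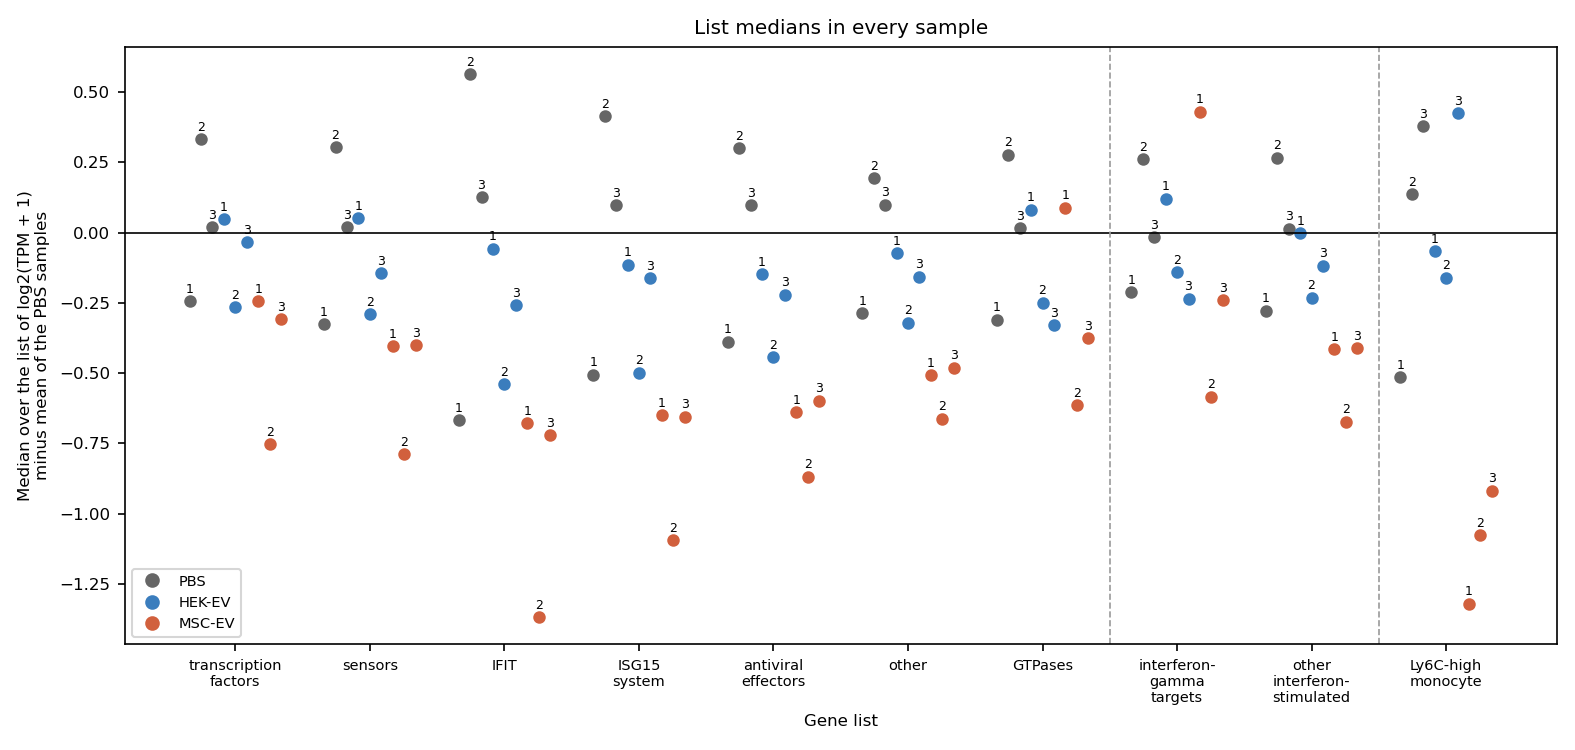
Median over each gene list of log2(TPM + 1) minus the PBS mean (vertical axis) in every sample, for the 7 role groups, 2 further lists of interferon-induced genes and 9 markers of Ly6C-high monocytes, with replicate numbers above the points. MSC-EV points lie lowest for most role groups, MSC-EV replicate 1 rises to 0.43 for interferon-gamma targets, and PBS replicate 1 lies below the other PBS samples in all 10 lists.

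No interferon transcript was prominent. Of 10 interferon genes, 8 (Ifna1, Ifna2, Ifna4, Ifna5, Ifne, Ifnk, Ifnl2 and Ifnl3) were listed at 0 TPM in all 9 samples, Ifnb1 was at most 0.141 TPM, and none of the 10 passed the filter, so none was tested. The receptor genes Ifnar1 and Ifnar2 were well expressed, while the lowest value of the receptor and JAK-STAT list lay between 0.99 and 2.25 TPM in each sample. Ifnar1 averaged 91.0 ± 7.65 TPM in PBS and 86.6 ± 7.69 in MSC-EV (SD, n = 3; estimate -0.07, adjusted p = 0.698), and Ifnar2 266 ± 21.0 and 278 ± 3.19 (0.07, adjusted p = 0.734). Of 11 receptor and JAK-STAT genes, 1 fell in MSC-EV against PBS, Stat3 (by 0.35, SE 0.0805, adjusted p = 0.0406), which signals mainly for the interleukin 6 family.

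Of 14 genes that sense nucleic acid or relay the signal, 1 fell, Irf5, a factor downstream of Toll-like receptors (by 0.37, SE 0.0658, adjusted p = 0.0251). Of 7 genes that restrain the pathway, 2 fell, the phosphatase gene Ptpn6 (by 0.39, SE 0.0895, adjusted p = 0.0405) and Trex1, a nuclease that clears DNA from the cytosol and was named after its values were seen. Of 38 further interferon-stimulated genes, 7 fell and none rose, with 37 estimates below 0 and a median of -0.49. Phf11c, a neighbour and relative of Phf11d, had the smallest p of these and fell by 1.21 (SE 0.17, adjusted p = 0.0151). It went from 7.71 ± 1.49 TPM in PBS to 2.748 ± 0.178 in MSC-EV (SD, n = 3). The lowest estimate of the 38 was -1.28. Slfn1, a Schlafen gene of immune cells, fell by 0.98 (adjusted p = 0.0313), Ifi203, of the p200 family, by 0.64 (adjusted p = 0.0313), Ifitm2, the relative of Ifitm3, by 0.53 (adjusted p = 0.0386) and Ly6e, a lipid-anchored surface protein, by 0.47 (adjusted p = 0.0403). Beside these counts stand the 3.25% of all genes that fell and the 5.11% that changed, so 1 of 11 and 1 of 14 are not set apart from that share. Stat3, Ptpn6 and Trex1 did not pass with median-of-ratios scaling or FPKM, Irf5 did not pass with FPKM, and 3 of the 38 further genes passed under each. The counts also rested on single samples. Without PBS replicate 1 the further list had 27 genes past the threshold, and the receptor, sensing and restraint lists had 2, 6 and 4. In that fit 13.7% of all genes passed and 6.87% fell, so 2 of 11 is not set apart from that share. Without PBS replicate 2, PBS replicate 3, MSC-EV replicate 1 or MSC-EV replicate 2, and with the acinar term, none of the 4 lists had any in limma's test, while 23 to 34 of the 38 further genes had an unadjusted p under 0.05 and 36 or 37 stayed below 0. Over all genes only 5 to 54 passed in those fits. The receptor list also had none without HEK-EV replicate 1, HEK-EV replicate 2 or MSC-EV replicate 3, and the restraint list none without HEK-EV replicate 2, HEK-EV replicate 3 or MSC-EV replicate 3. There 2.20% to 4.34% of all genes passed.

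Cell type markers moved in the same samples. Of all 13820 genes tested, 449 fell and 257 rose. The 9 markers of Ly6C-high monocytes summed to 6309 to 12569 TPM in PBS, 8026 to 10286 in HEK-EV and 3877 to 4796 in MSC-EV, and 4 of the 9 fell in MSC-EV against PBS (Ly6c2, Chil3, Vcan and Plac8). Ly6c2 was at 504, 1226 and 1229 TPM in the PBS replicates, so PBS replicate 1 was low there too. Of 9 genes of lipid-associated macrophages, 7 rose, from a sum of 9489 to 10721 TPM in PBS to 19299 to 22014 in MSC-EV. All 8 Kupffer cell markers had estimates below 0, with a median of -0.67 and sums of 3050 to 3712 TPM in PBS and 1744 to 3022 in MSC-EV. None of the 8 passed the threshold, where 2 had an unadjusted p under 0.05 in limma's test. The 8 hepatocyte markers summed to 205.5 to 280.4 TPM in PBS and 385.3 to 500.6 in MSC-EV, and 7 of the 8 were without overlap on the higher side. Of the 8, 7 were tested, all with estimates above 0, and Apoa1 and Cyp2e1 rose. All 7 endothelial markers had estimates below 0 and an unadjusted p under 0.05, with a median of -0.78 and none past the threshold in limma's test. Ptprc, of 5 markers of CD11b+ leukocytes, fell by 0.46 (adjusted p = 0.0271), and the other 4 were below 0 without passing. Among the 5, Itgam had the lowest estimate, -0.53, at 196, 235 and 255 TPM in MSC-EV and 289 to 377 in PBS. In this list 3 were without overlap on the lower side (14.9% of all genes). An unadjusted p under 0.05 in limma's test was reached by 3 (23.0% of all genes). The 10 neutrophil markers had 7 estimates below 0, and 4 had an unadjusted p under 0.05 in limma's test. None of them was without overlap on the lower side and 3 were on the higher side, and Ltf rose. The share of all genes without overlap on the higher side was not counted. Of 8 lymphocyte markers 4 were tested, all with estimates above 0, and Nkg7 rose. Their highest value was 12.6 TPM, for Gzma, while the T cell genes Cd3e and Cd3g were at or below 0.902 TPM.

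Plasmacytoid dendritic cells are known for making type I interferon, and their 7 markers summed to 12.97 to 14.22 TPM in PBS, 20.41 to 36.12 in HEK-EV and 19.3 to 76.42 in MSC-EV. Of the 5 tested, 3 had estimates above 0 in MSC-EV against PBS, with a median of 0.75, and Tcf4 rose. Klk1 was at 52.2 TPM in MSC-EV replicate 3 and at 18.95 in HEK-EV replicate 2, the samples with the largest share of acinar transcripts. The defining marker Siglech was at 0.411 to 1.59 TPM and Ccr9 and Pacsin1 were under 1 TPM in every sample. The part of these cell types in the interferon result was not tested.

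Vesicles from HEK cells were set against the same PBS samples. No interferon-stimulated gene of the 35 passed the threshold, and neither did any of the 13820 genes (0.0%) in limma's test, where 495 genes (3.58%) and 1 of the 35, Bst2, had an unadjusted p under 0.05. All 35 estimates were below 0, against 39.0% of all genes, with a median of -0.21 and a range from -0.33 for Ifit3 to -0.0045 for Irf9. Single samples moved this shift both ways. Without HEK-EV replicate 2, 31 of 35 were below 0 (40.9% of all genes) and the median was -0.13. Without HEK-EV replicate 3, 33 were below 0 (42.7% of all genes), with a median of -0.22. Without PBS replicate 2 only 20 of 35 were below 0 and the median was -0.03. Without PBS replicate 1 all 35 were below 0, against 31.9% of all genes, and the median was -0.36. In that fit 20 of the 35 had an unadjusted p under 0.05 in limma's test, as had 1169 of 13725 genes, and none passed the threshold. None of the 35 was without overlap between the groups on either side, where 2.29% of all genes were on the lower side. Ifitm3 had an estimate of -0.22 (SE 0.151), Isg15 of -0.29 (SE 0.258) and Irf7 of -0.07 (SE 0.244), each with an adjusted p of 0.999. By role, the medians ran from -0.30 for the IFIT genes to -0.07 for the transcription factors. Without PBS replicate 1 these medians were -0.65 and -0.27, and all 4 IFIT genes had an unadjusted p under 0.05 in limma's test. Without PBS replicate 2 they were 0.009 and 0.036. The PBS samples are shared by this comparison and the previous one, so their estimates are not independent.

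**Figure D4:**
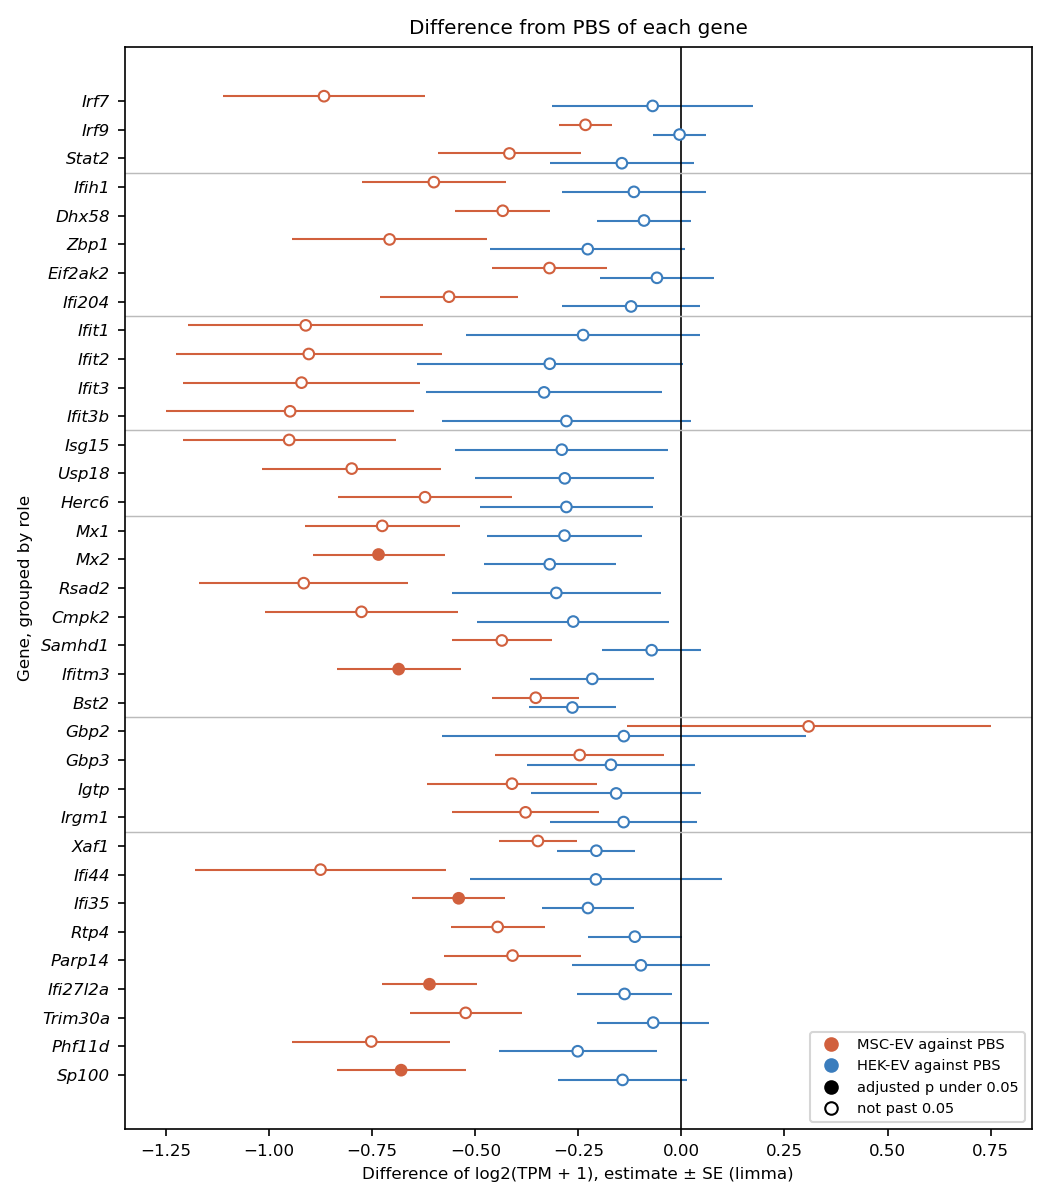
Difference from PBS in log2(TPM + 1) (horizontal axis, estimate ± SE from limma) of each of the 35 genes, for MSC-EV and for HEK-EV, with filled points for an adjusted p under 0.05. MSC-EV estimates lie left of the HEK-EV estimates except for Gbp2, and the 5 filled points all belong to MSC-EV. Without PBS replicate 2 the HEK-EV estimates of 15 genes were no longer below 0, and without PBS replicate 1 all 35 were below 0.

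Set directly against HEK-EV, the MSC-EV samples had 1 gene past the threshold, Ifi27l2a, which fell by 0.47 (SE 0.114, adjusted p = 0.0442), where 4.40% of all genes fell and 5.91% changed in either direction. Of the 35 genes, 34 had estimates below 0 (53.8% of all genes) and 24 were without overlap on the lower side (17.5% of all genes on that side). The median was -0.44, and 19 had an unadjusted p under 0.05 (23.3% of all genes). No member passed without PBS replicate 2 or without any single HEK-EV or MSC-EV sample, where 7 to 23 had an unadjusted p under 0.05 in limma's test. Over all genes in those fits, 652 passed without PBS replicate 2, 619 without MSC-EV replicate 3 and 0 to 31 without the others. Without PBS replicate 1 there were 11, where 10.1% of all genes passed and 6.60% fell. All 4 IFIT genes were without overlap, with a median of -0.63, while none of the 4 GTPases was, with a median of -0.16. The GTPase median was -0.34 without MSC-EV replicate 1, -0.006 without MSC-EV replicate 2 and -0.04 without HEK-EV replicate 1. The IFIT median was -0.41 without MSC-EV replicate 2. The lowest estimate was that of Irf7, -0.80 (SE 0.244, adjusted p = 0.0864). In 21 of the 35 genes all MSC-EV values lay below all 6 other values, against 10.2% of all genes tested, a pattern counted after the values were seen. Of the pathway genes, Stat3 fell by 0.46 (adjusted p = 0.0217), Irf5 by 0.34 (adjusted p = 0.0261), Ifitm2 by 0.60 (adjusted p = 0.0263) and Ptpn6 by 0.43 (adjusted p = 0.0292) in MSC-EV against HEK-EV. The adaptor gene Myd88 fell by 0.55 (adjusted p = 0.03), the kinase gene Jak1 by 0.28 (adjusted p = 0.0317), Slfn1 by 0.92 (adjusted p = 0.033) and Phf11c by 0.76 (adjusted p = 0.0359). In limma's test these lists had no gene past the threshold when any single HEK-EV sample, MSC-EV replicate 1 or MSC-EV replicate 2 was left out, where 6 to 23 of the 38 further interferon-stimulated genes had an unadjusted p under 0.05. Without MSC-EV replicate 3 the calls of Myd88, Ptpn6, Ifitm2, Slfn1 and Phf11c were lost as well. With median-of-ratios scaling or FPKM only Stat3 of these genes passed.

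Cell type markers moved in this comparison too, where 608 of the 13820 genes tested fell and 209 rose. Of 9 markers of Ly6C-high monocytes 5 fell (median -1.05), of 9 of lipid-associated macrophages 6 rose, and Itgam and Ptprc fell. The 7 hepatocyte markers tested had estimates above 0 and 3 rose (Ahsg, Alb and Apoa1), the 7 endothelial markers had estimates below 0, 5 at an unadjusted p under 0.05 and none past the threshold in limma's test, and the lymphocyte marker Nkg7 rose. The 10 neutrophil markers summed to 5035 to 6883 TPM in HEK-EV, 2971 to 3777 in MSC-EV and 3037 to 5617 in PBS. Of these 10, 9 had an unadjusted p under 0.05, 6 were without overlap on the lower side, Csf3r fell and Ltf rose. Their part in the interferon result was not tested.

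The number of genes past the threshold in MSC-EV against PBS depended on single samples far more than the direction did. Without PBS replicate 1, 28 of the 35 genes passed, all 4 IFIT genes and Isg15 among them, and the median was -0.76, while 13.7% of all genes passed and 6.87% fell. Without PBS replicate 2, PBS replicate 3, MSC-EV replicate 1 or MSC-EV replicate 2 none passed in limma's test, with medians of -0.45, -0.57, -0.64 and -0.52 and with 24, 28, 33 and 24 genes at an unadjusted p under 0.05. Calls were nearly lost over all genes in these fits too, with 5, 7, 23 and 54 genes past the threshold (0.0363% to 0.393%). Leaving out HEK-EV replicate 2 gave 2 genes, MSC-EV replicate 3 also 2, and HEK-EV replicate 3 gave 3. Of all genes, 2.20%, 3.37% and 4.09% passed in the same order. In each of these fits at least 34 of the 35 estimates were below 0. The 7 that did not pass without PBS replicate 1 were Stat2, Eif2ak2, Parp14 and the 4 GTPases. With the acinar split as a term none passed in limma's test, 33 had an unadjusted p under 0.05, and the median was -0.69.

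**Figure D5:**
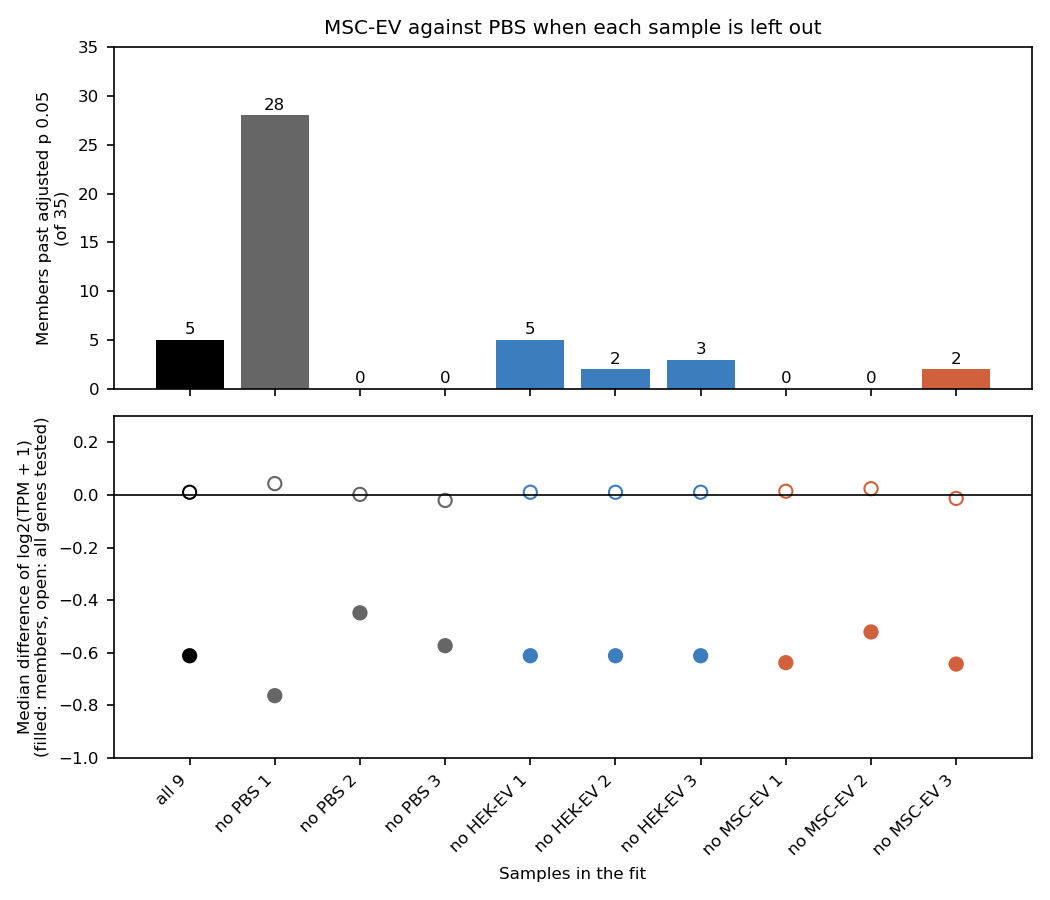
MSC-EV against PBS with all 9 samples and with each sample left out (horizontal axis). The upper bars count how many of the 35 genes had an adjusted p under 0.05, from 0 to 28, and the lower points give the median difference of log2(TPM + 1), filled for the 35 genes (between -0.76 and -0.45) and open for all genes tested.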

How the data were processed

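Bulk RNA sequencing of CD11b+ liver cells gave 1 table per sample for 9 samples, 3 per group by the treatment in the labels. Libraries were TruSeq Stranded mRNA, per the labels' protocols. The submitters' processing notes name mm10, HISAT2 2.1.0 and StringTie. How reads were assigned, by strand or among relatives, is not given in the sources used here. The deposited TPM sum to 1000000 in each sample, the deposited FPKM are scaled by gene length and library size, and the deposited coverage signal is the mean per base of a gene, per the file headers. Coverage and FPKM served for relative depth and FPKM for 1 alternative.

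Gene IDs were matched to RefSeq genes of GRCm38.p6 (99.79% had a symbol). Values are log2(TPM + 1) without further scaling. The filter kept genes at 1 TPM or more in 3 or more samples, and these were tested with limma 3.58.1 (trend) in R 4.3.3, all 9 samples in 1 fit, two-sided, Benjamini-Hochberg over 13820 genes, threshold 0.05. No exact test was made for single genes, since 3 against 3 cannot give a p below 0.1. Promoter letters were searched in Python 3.11.15, and transcripts of GENCODE M21 were compared for relatives.

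The members, lists, rules and alternatives were chosen with earlier results of these data known, and the lists are described by counts and medians without a set test. Values in every sample are given for genes past the threshold and for the most abundant gene of each role group. Of the pathway lists, at most 8 genes past the threshold per comparison are named, those of smallest p, with interferons and their receptors, and Trex1 was added. Values of 1 pathway gene are not reported here. Replicate numbers were not taken as pairs.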

Additional observations from a re-analysis of the deposited data

How the results depend on the processing

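In MSC-EV against PBS, 706 genes passed (257 higher, 449 lower), and the members' median was -0.61. The split was 288 higher and 322 lower with median-of-ratios scaling and 280 and 197 with FPKM, and in both 34 of the 35 members stayed below 0. Genes passing numbered 11 with no filter, 167 with only the 6 samples compared, 1339 with depth as a covariate and 21 with the acinar term. They ranged from 5 to 1881 when a sample was left out. Members passing numbered 2 with median-of-ratios scaling, 1 with FPKM, 0 with no filter, 0 with the 6 samples, 10 with depth as a covariate (median -0.92) and 0 with the acinar term, and ranged from 0 to 28 when a sample was left out. In HEK-EV against PBS, 6 genes passed with no filter and 0 to 2 when a sample was left out. The members' median there was -0.33 with depth as a covariate and -0.34 with the acinar term. In MSC-EV against HEK-EV, 817 genes passed (209 higher, 608 lower), 509 with median-of-ratios scaling (236 and 273) and 436 with FPKM (239 and 197). With no filter 5 passed, with only the 6 samples compared 1120 (8.26%), with depth as a covariate 1449 and with the acinar term 550 (3.98%). From 0 to 1384 passed when a sample was left out. Members passing there were 0 under both scalings, no filter and the acinar term, 7 with the 6 samples, 7 with depth as a covariate, and 0 to 11 when a sample was left out. The replicate block gave 404 genes and 1 member (Ifitm3) for MSC-EV against PBS, and 448 genes and 0 members for MSC-EV against HEK-EV. Correlations between samples that shared a number ran from -0.50 to 0.06. With 3 samples a group they cannot show whether such samples shared a batch. Gbp2 changed sign against PBS with the acinar term (-0.16) and between -0.27 and 0.62 when a sample was left out in MSC-EV, between -0.37 and 0.088 in HEK-EV, and between -0.13 and 0.76 in MSC-EV against HEK-EV. In MSC-EV against PBS no other member changed sign, and in HEK-EV against PBS 15 were not below 0 without PBS replicate 2. The calls of Stat3, Ptpn6 and Trex1 against PBS were also lost with no filter, the 6 samples and the replicate block, and that of Irf5 with the first 2 of these. With the replicate block 1 interferon-gamma target passed. The causes were not tested. A pseudocount of 0.1 and a minimum of 5 TPM left the members passing at 5 and 1. What depth limits cannot be stated from these tables. The fit with depth as a covariate cannot fully separate depth from MSC-EV, whose samples all had higher depth ratios than the others.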
